A study of Mus musculus with 8 samples.

Results

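Small nucleolar RNAs (snoRNAs) and the genes that carry them were examined in RNA seq counts from mouse cochlea. The rows were taken by gene symbol: Snord, Snora or Scarna followed by a number, Snhg followed by a number, and Gas5. This gave 149 of the 47628 entries that name a gene, with 147 distinct symbols: 84 Snord rows, 40 Snora rows, 9 Scarna rows and 16 host gene rows. Cochleae came from WT mice 4, 5, 6 and 8 and Opa1+/- mice 2, 7, A and B, where A and B stand for the lower and the higher of the animal numbers with 3 digits. They were littermates on a mixed C57BL/6J and 129Sv/Pas background at 21 days of age, with no treatment named for either group. Opa1+/- mice carry 1 knock-in allele with the OPA1 delTTAG mutation in every cell, and Opa1 encodes the GTPase of the mitochondrial inner membrane that drives its fusion. The labels give no sex per sample, and each library is 1 animal. The study's list of animals gives both cochleae of each mouse for RNA seq and RT-qPCR jointly, and the number behind 1 library is not given in the sources used here.

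snoRNAs guide the chemical modification of other RNAs, mainly ribosomal RNA. Box C/D snoRNAs (Snord genes) form particles with fibrillarin that methylate ribose, and box H/ACA snoRNAs (Snora genes) form particles with dyskerin that turn uridine into pseudouridine. Scarna genes encode related guides that stay in Cajal bodies and act on spliceosomal RNAs. In mammals most of these RNAs are not transcribed from promoters of their own but cut out of the introns of a host gene after splicing. Many hosts are mRNAs of the translation machinery, such as those of ribosomal proteins, and some are mRNAs of other functions. Others are noncoding RNAs such as Gas5 and the Snhg genes, whose spliced exons are often broken down quickly. The level of a snoRNA and that of its host can therefore differ widely.

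The sequences of the guides on which the results turn are shown here, taken from the GENCODE vM21 transcripts of GRCm38 and written 5′ to 3′ as DNA letters. Snord96a and Snord21 had enough counts to be tested, Snord50a and Snord50b are near-identical copies within Snhg5, Snord82 and Snord33 were picked after their values were seen, and Snora24 lies within the host Snhg8. Capitals mark the box C motif TGATGA and the box D motif CTGA in Snord genes, and the ACA that lies 3 bases from the 3′ end in Snora24.
Snord96a (chr11:48802032-48802112, plus strand): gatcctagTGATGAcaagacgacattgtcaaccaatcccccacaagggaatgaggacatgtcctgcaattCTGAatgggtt
Snord21 (chr5:107904555-107904648, plus strand): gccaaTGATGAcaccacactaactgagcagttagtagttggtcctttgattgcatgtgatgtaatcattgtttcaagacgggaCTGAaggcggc
Snord50a (chr9:88521529-88521600, minus strand): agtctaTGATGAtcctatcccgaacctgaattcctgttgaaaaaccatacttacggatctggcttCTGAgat
Snord50b (chr9:88521797-88521868, minus strand): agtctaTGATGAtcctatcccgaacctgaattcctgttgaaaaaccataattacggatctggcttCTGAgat
Snord82 (chr1:86356261-86356330, minus strand): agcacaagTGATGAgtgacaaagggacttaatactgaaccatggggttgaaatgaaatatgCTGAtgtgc
Snord33 (chr7:45126864-45126947, minus strand): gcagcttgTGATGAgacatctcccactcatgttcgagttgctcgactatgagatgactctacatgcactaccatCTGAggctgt
Snora24 (chr3:123507937-123508066, minus strand): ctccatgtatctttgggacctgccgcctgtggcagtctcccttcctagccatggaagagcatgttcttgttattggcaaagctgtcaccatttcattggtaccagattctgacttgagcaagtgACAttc

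The motifs were searched on the annotated strand only. TGATGA starting within the first 20 bases occurred in 55 of 83 Snord sequences (66.3%), and CTGA starting within the last 20 bases in 81 (97.6%). CTGA alone also lay there in 10.3% of Snora sequences and 9.52% of 1680 microRNA genes of 60 to 110 bases. Both occurred together in 63.9% of Snord sequences, in 0.0595% of those microRNA genes and in none of the 39 Snora sequences. ACA at 3 bases from the 3′ end was found in 34 of the 39 Snora sequences (87.2%) and in 3.93% of the microRNA genes. Scarna sequences were mixed, with both boxes in 3 of 8 (Scarna6, Scarna9 and Scarna10) and the ACA in 2 (Scarna8 and Scarna13). Snord50a and Snord50b were identical in 71 of 72 bases, and each shared a run of 40 bases with 6 other annotated genes, the other copy among them. No other annotated gene outside the host shared such a run with Snord96a, Snord21, Snord82, Snord33 or Snora24.

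The libraries held 15978051 to 20828030 counts on named genes per mouse. Opa1 counts fell in the Opa1+/- mice from 119.7 ± 6.09 CPM (counts scaled to 1000000 per library, SD, n = 4) to 65.57 ± 4.42 CPM (SD, n = 4), with no overlap between groups (edgeR, adjusted p = 0.00515). Defining markers of the cochlea were present in every library, with hair cell genes at 67.07 to 104.3 CPM over both groups and spiral ganglion neuron genes at 3562 to 4664 CPM, and so were those of surrounding tissue. WT mouse 4 stood apart within its group in the 10 neutrophil and marrow genes, which summed to 1411 CPM there, while the remaining WT mice had 435.3 to 527.5 CPM, with 456.7 to 1172 CPM in Opa1+/- mice. The 7 erythroid genes summed to 12550 ± 6230 CPM in the WT group and 18480 ± 4620 CPM in the Opa1+/- group (SD, n = 4 each), and the groups overlapped. The part of these cells in the results was not tested. In a whole tissue, fewer cells of a type and less RNA per cell cannot be told apart.

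The small RNAs were counted at very low depth. The 84 Snord rows held 1349 counts over all 8 mice, the 40 Snora rows 353 and the 9 Scarna rows 61, whereas the 16 host rows held 101331, of which 71167 were on Snhg11 alone. No count at all fell on 14 Snord, 4 Snora and 3 Scarna rows. Only 17 members passed the minimum for testing, a mean normalized count over 10: the 3 Snord genes Snord55, Snord96a and Snord21, and 14 hosts. No Snora or Scarna gene passed it. Classes were therefore compared as sums over all their rows, without a filter and without a test, and single genes by edgeR's quasi-likelihood test over all 19366 genes that passed.

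The rows of box C/D snoRNAs were higher in the cochleae of Opa1+/- mice as a class. Their summed level was 7.19, 7.23, 7.35 and 6.07 CPM in WT mice 4, 5, 6 and 8, and 12, 8.12, 12.1 and 17.0 CPM in Opa1+/- mice 2, 7, A and B. No Opa1+/- mouse reached down to the WT range, with mouse 7 nearest to WT and mouse B farthest from it. The means were 6.96 ± 0.596 CPM and 12.3 ± 3.65 CPM (SD, n = 4 each), a ratio of 1.77. In WT the SD between mice was close to that of counting alone, which would give 0.607 CPM, whereas in Opa1+/- mice it was larger than the 0.838 CPM that counting would give. Behind each WT value stood 123 to 148 counts, and behind each Opa1+/- value 162 to 267. Without Opa1+/- mouse B the log2 ratio was 0.63, and without mouse 7 it was 0.98, against 0.82 with all mice. With mice A and B both left out it was 0.53. The summed erythroid genes followed the order of the Snord sum in part of the mice only. WT mouse 8 was also lowest for them, at 7739 CPM. The Opa1+/- mice came in the same order, 7 at 15040, 2 at 15420, A at 18430 and B at 25030 CPM. Mouse B was the highest of all. Among WT mice, mouse 4 at 21420 CPM lay within the range of Opa1+/- mice, and mice 5 and 6, at 12300 and 8725 CPM, lay below it. From mouse 4 over mouse 5 to mouse 6 the erythroid sum thus fell, whereas the Snord sum rose slightly, from 7.19 to 7.35 CPM. Whether these cells have a part in the Snord values was not tested. Nor was it tested whether reads on snoRNA rows came from the snoRNAs themselves or from RNA of their host genes. Most Snord rows lie within a host, and the way reads were counted there is not known.

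**Figure D1:**
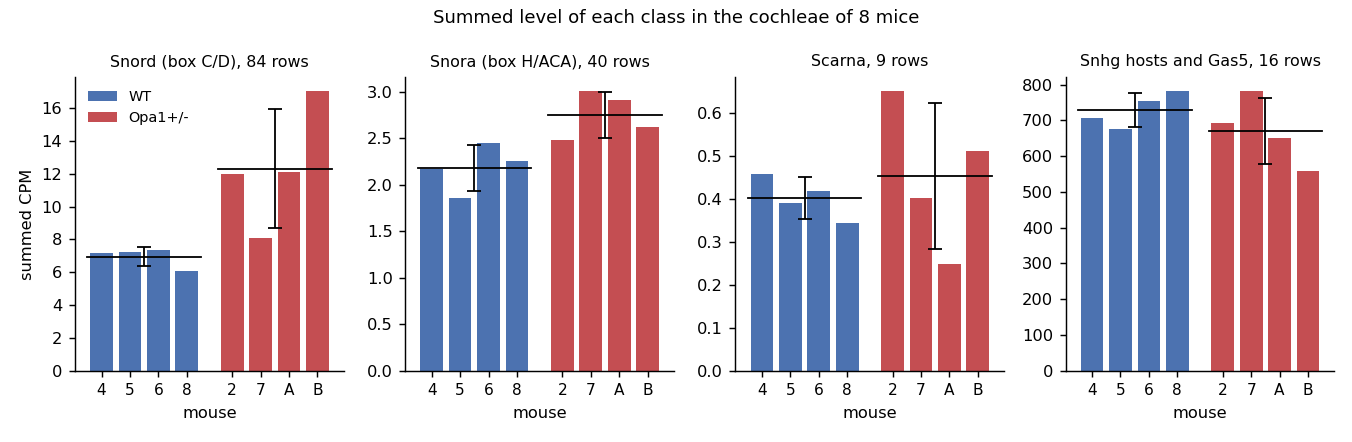
Summed CPM of the Snord, Snora, Scarna and host gene rows in each mouse, WT in blue and Opa1+/- in red, with the group mean as a line and its SD as a bar. The 4 Opa1+/- mice lie between 8.12 and 17.0 CPM for Snord and all above the WT mice, whereas the host sums of the groups overlap.

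The box H/ACA sum had a smaller ratio, and the difference between the classes was not tested. It was 2.17, 1.86, 2.45 and 2.25 CPM in WT mice 4, 5, 6 and 8 and 2.48, 3.01, 2.91 and 2.62 CPM in Opa1+/- mice 2, 7, A and B. The groups did not overlap, but the highest WT mouse and the lowest Opa1+/- mouse were 2.45 and 2.48 CPM, a gap under the counting error of either. The means were 2.18 ± 0.247 and 2.75 ± 0.245 CPM (SD, n = 4 each), a ratio of 1.26, and counting alone gives an SD of 0.340 and 0.401 CPM. Per mouse, 38 to 46 counts in WT and 41 to 60 in Opa1+/- mice lay behind these values. The order of mice differed from that of the Snord sum: mouse B, highest for Snord, was the second lowest of the Opa1+/- mice for Snora.

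Scarna genes were at the limit of detection, with 7 to 8 counts per WT mouse and 4 to 11 per Opa1+/- mouse. Their sums of 0.402 ± 0.0479 CPM in the WT group and 0.452 ± 0.170 CPM in the Opa1+/- group (SD, n = 4 each) overlapped. Most of these counts were on Scarna2, a guide with a gene of its own outside any annotated gene of its strand, with 6, 4, 2 and 5 counts in WT and 7, 3, 2 and 6 counts in Opa1+/- mice. Scarna13 had 9 counts in all, Scarna10 had 8, Scarna17 had 4 and Scarna3a had 3.

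Of the 70 Snord rows with any count, 45 had a higher mean in Opa1+/- mice and 25 a lower mean. The rows with few counts were split evenly, 21 higher and 23 lower among the 44 with 1 to 9 counts. Of the 26 Snord rows with 10 or more counts over the 8 mice, 24 had a higher and 2 a lower mean, a limit on totals over both genotypes, which a row can pass through the group where it is high. Over all 8655 entries with 10 to 250 counts the mean was higher in Opa1+/- mice for 53.3%. Of the 36 Snora rows with any count 20 had a higher and 16 a lower mean, and of the 13 with 10 or more counts 6 and 7. Without Snord55, the member with the most counts, the Snord sum still went from 5.95 ± 0.540 to 10.3 ± 3.28 CPM (SD, n = 4 each), with no overlap. Rows of a repeated symbol share reads: Snord80 is listed for 2 annotated genes at the same place, and with 1 row for each symbol the ratio was 1.75.

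Among single Snord genes, Snord55 had 11, 29, 20 and 16 counts in WT mice 4, 5, 6 and 8 and 30, 27, 43 and 37 counts in Opa1+/- mice 2, 7, A and B. Its level was 1.01 ± 0.363 CPM in the WT group and 2.04 ± 0.586 CPM in the Opa1+/- group (SD, n = 4 each). WT mouse 5, at 1.42 CPM, lay above Opa1+/- mouse 7, at 1.35 CPM, so that the groups overlapped. The log2 fold change was 1.002 with an SE of 0.31 (edgeR, unadjusted p = 0.00964, adjusted p = 0.722).

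Snord21, within the ribosomal protein gene Rpl5, was the small RNA that separated the groups most clearly among those tested. It had 6, 9, 8 and 7 counts in WT and 14, 13, 15 and 17 counts in Opa1+/- mice, or 0.401 ± 0.0689 CPM and 0.873 ± 0.182 CPM (SD, n = 4 each). Every Opa1+/- mouse was above every WT mouse, and the log2 fold change was 1.10 with an SE of 0.26 (edgeR, unadjusted p = 0.00194, adjusted p = 0.722). Snord96a, within Rack1, which encodes a ribosome-bound scaffold protein, had 12, 9, 10 and 12 counts in WT and 17, 10, 15 and 16 in Opa1+/- mice. Here Opa1+/- mouse 7, at 0.501 CPM, lay within the WT range of 0.440 to 0.685 CPM, and the log2 fold change of 0.57 had an SE of 0.29 (edgeR, unadjusted p = 0.0790, adjusted p = 0.758).

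None of the 17 tested members passed an adjusted p of 0.05, by edgeR or by DESeq2, where 0.0258% and 0.119% of all tested genes did. At an unadjusted p under 0.05, edgeR called 3 members higher in Opa1+/- mice, against a background of 3.51% of all tested genes, and 1 member lower, against 3.22%. They were Snord21, Snord55 and Snhg8 on the higher side and Snhg14 on the lower side. DESeq2 also gave 3 and 1, where 2.76% and 2.85% of all genes were called. With fewer mice these counts moved. Without Opa1+/- mouse 7 they were 5 and 2, against 3.61% and 3.43% of all genes in that fit, and without mice A and B they were 0 and 0, where the share of all genes also fell, to 1.46% and 1.44%. Groups without overlap were found for Snord21, Snhg8 and Snhg6 among the tested members with Opa1+/- mice above WT (1.98% of all tested genes) and for Snhg14 with Opa1+/- mice below WT (2.33%).

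**Figure D2:**
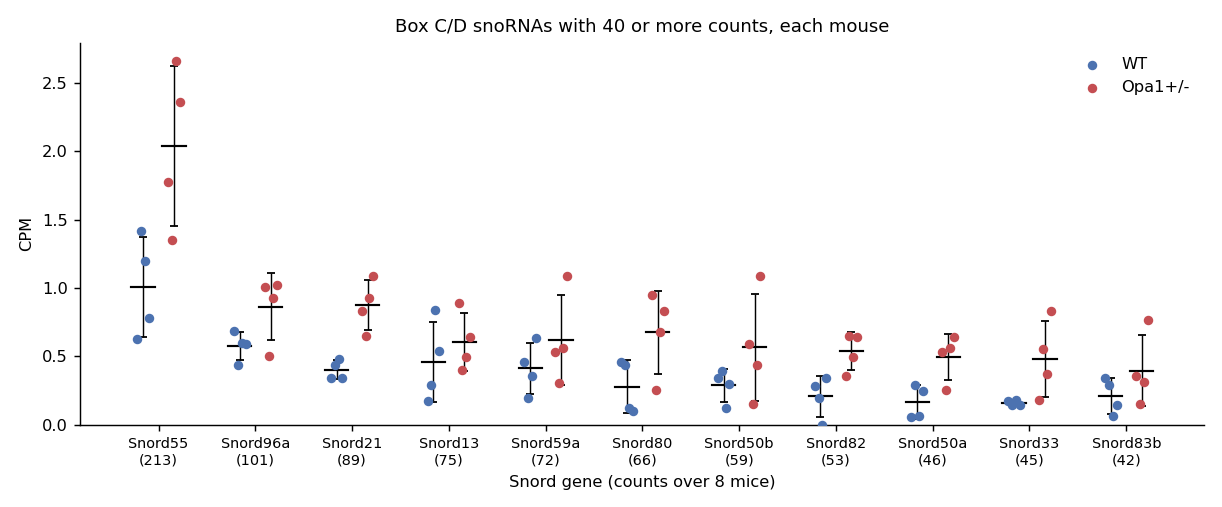
CPM in each mouse for the Snord genes with 40 or more counts over the 8 mice, 1 row for each symbol, WT in blue and Opa1+/- in red, with the group mean and its SD. Snord21 and Snord82 show no overlap between groups, and Snord55 has the highest level, with 1 WT mouse above the lowest Opa1+/- mouse.

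Below the testing minimum, single genes rested on few counts per mouse. Snord13, which has a gene of its own and guides the acetylation rather than the methylation of ribosomal RNA, had 3, 6, 14 and 11 counts in WT and 15, 8, 8 and 10 in Opa1+/- mice, a ratio of 1.32 in CPM. The groups overlapped widely for it, as they did for Snord59a, within the gene of the ATP synthase subunit Atp5b, with 8, 4, 6 and 13 counts in WT and 9, 6, 9 and 17 in Opa1+/- mice and a ratio of 1.503. Snord118, the U8 snoRNA, needed for the large ribosomal subunit and also transcribed from its own promoter, had 3 counts in all.

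Some further Snord genes stood out and were picked after their values were seen. Snord82, within the nucleolin gene Ncl, had 5, 4, 0 and 7 counts in WT and 6, 13, 8 and 10 in Opa1+/- mice, a ratio of 2.60, and in CPM its groups did not overlap, by a gap of less than what 1 count is worth (0.343 CPM in WT mouse 8 and 0.355 CPM in Opa1+/- mouse 2). Snord33, within Rpl13a, had 3 counts in each WT mouse and 3, 11, 6 and 13 in Opa1+/- mice, a ratio of 2.997 with Opa1+/- mouse 2 within the range of WT. Snord50a, within Snhg5, had 1, 6, 1 and 5 counts in WT and 9, 5, 9 and 10 in Opa1+/- mice, and its near-identical copy Snord50b 6, 8, 2 and 6 against 10, 3, 7 and 17. Reads of these copies cannot be told apart over most of their length. Fitted with no count minimum, 12 members had an unadjusted p under 0.05 and a higher level in Opa1+/- mice, 9 of them Snord rows, and 1 a lower level. Both rows of Snord80, which share their reads, are among the higher ones, which therefore stand for 11 symbols, 8 of them Snord, and none passed the adjusted threshold. Of all 34939 entries in that fit, 904 were higher and 682 lower at that p.

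Among box H/ACA snoRNAs, Snora24 had 2, 1, 0 and 3 counts in WT and 5, 7, 5 and 2 in Opa1+/- mice, and the groups overlapped. Snora28, within the translation factor gene Eif5, had 2, 2, 2 and 1 counts in WT and 4, 4, 2 and 2 in Opa1+/- mice, a ratio of 1.81 without overlap in CPM at depths where 1 count decides the order. Snora73b and Snora73a, in Snhg3 and Rcc1 and 96.6% identical to each other, went different ways, with ratios of 1.32 and 0.772, and summed to 0.471 ± 0.111 and 0.517 ± 0.158 CPM (SD, n = 4 each). Snora81, within the gene of the helicase Eif4a2, had a ratio of 0.855 and shared a run of 40 bases with 3 other annotated genes.

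The annotation was then used to ask where in the genome the difference lay. Of the 84 Snord genes, 22 lie in ribosomal protein genes, 12 in Snhg genes or Gas5, 47 in other genes and 3 in no gene of their strand. Snord genes in ribosomal protein genes summed to 2.66 ± 0.424 CPM in the WT group and 4.87 ± 1.46 CPM in the Opa1+/- group (SD, n = 4 each), a ratio of 1.83 without overlap. Those in other genes had a ratio of 1.63, also without overlap, where the highest WT mouse and the lowest Opa1+/- mouse were 2.85 and 2.86 CPM. Those in Snhg genes or Gas5 had a ratio of 2.03, at 1.40 ± 0.635 and 2.85 ± 1.06 CPM (SD, n = 4 each), and overlapped. The 3 Snord genes outside any gene, Snord13, Snord118 and Snord104, had a ratio of 1.40 and overlapped. The difference between these places was not tested.

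Whether a Snord gene overlaps an exon of its host was also taken from the annotation. This split was chosen after the class values were known. The 41 Snord genes that overlap an annotated exon had a ratio of 1.84, from 3.30 ± 0.442 to 6.06 ± 1.74 CPM, and the 40 that are intronic in every annotated transcript a ratio of 1.77, from 3.13 ± 0.302 to 5.53 ± 1.93 CPM (SD, n = 4 each). Neither overlapped between groups, and the difference between the ratios was not tested.

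The rows also differ in length. All 133 snoRNA and Scarna rows were split by annotated length. The 74 rows under 100 bases went from 6.05 ± 0.642 to 10.99 ± 3.37 CPM, a ratio of 1.81 without overlap. The 49 rows of 100 to 150 bases went from 2.35 ± 0.783 to 3.396 ± 0.141 CPM, a ratio of 1.44 with overlap, and the 10 rows over 150 bases from 1.14 ± 0.0924 to 1.15 ± 0.236 CPM, a ratio of 1.01 (SD, n = 4 each). Length and class go together, with a median of 79.5 bases for Snord and 132.5 for Snora genes, and they cannot be told apart in these sums. No test was made of the difference between lengths.

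Other short RNAs in the same libraries were summed beside them. The 22 mitochondrial tRNA genes, which are also under 100 bases, were 2.48 times as high in Opa1+/- mice without overlap. As for Snord, WT mouse 8 was the lowest of WT, Opa1+/- mouse 7 the lowest of Opa1+/- and mouse B the highest of all. MicroRNA genes, counted in the same way, had 43.9 ± 4.15 CPM in the WT group and 46.8 ± 6.02 CPM in the Opa1+/- group (SD, n = 4 each), a ratio of 1.07 with overlap. Spliceosomal and Y RNAs had a ratio of 1.28 with overlap, again with mouse 7 lowest, at 37.4 CPM, and mouse B highest, at 88.4 CPM. For RNA extraction the study's methods give 1 procedure, TRI Reagent followed by NucleoSpin columns, whereas the labels name TRI Reagent or an RNeasy kit for every sample alike, and the part of the extraction in these values was not tested.

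**Figure D3:**
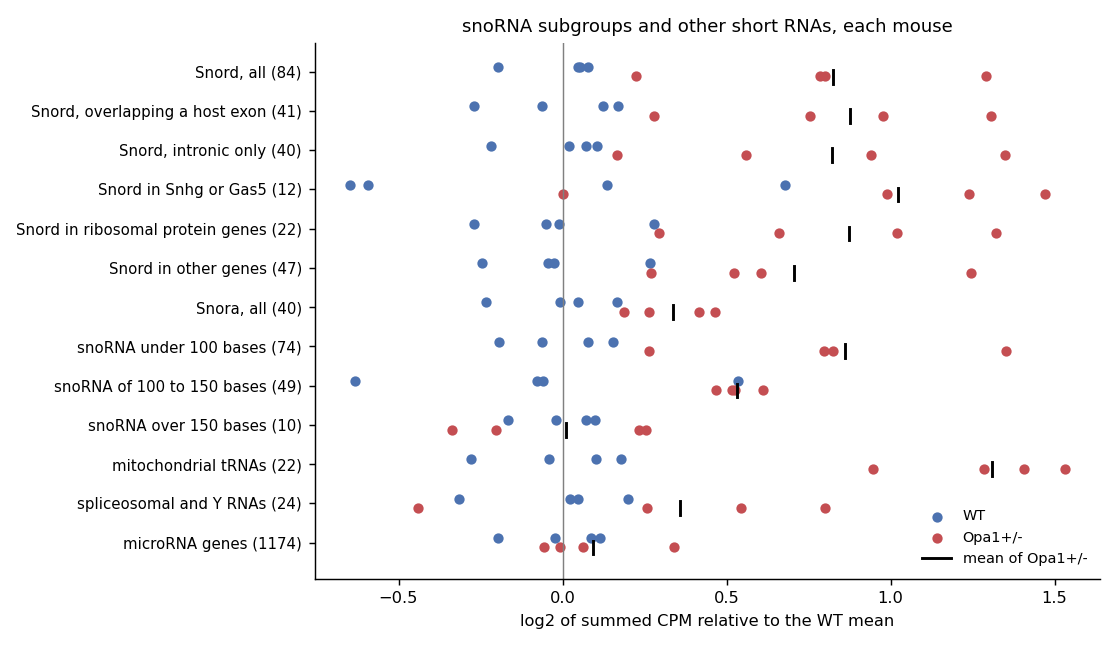
Summed level in each mouse on a log2 scale relative to the WT mean, for subgroups of snoRNA genes (number of rows in parentheses) and other short RNAs, WT in blue, Opa1+/- in red and the Opa1+/- mean as a black line. The Snord subgroups shown lie to the right of 0 at log2 ratios of 0.71 to 1.02, snoRNAs over 150 bases at 0.01 and mitochondrial tRNAs at 1.31.

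The summed noncoding host genes overlapped between groups. Taken over all 16 rows, hosts were at 729.3 ± 47.7 CPM in the WT group and 670.4 ± 93.1 CPM in the Opa1+/- group (SD, n = 4 each), a ratio of 0.919. Most of this was Snhg11, a noncoding RNA of neurons and one of the 4 brain markers examined, at 482.8, 472.3, 540.1 and 583.4 CPM in WT and 478.3, 576.1, 448.0 and 335.7 CPM in Opa1+/- mice. Without Snhg11 the host sum was 209.7 ± 11.1 and 210.9 ± 8.47 CPM (SD, n = 4 each), a ratio of 1.01. Of the 14 tested hosts, 8 had a log2 fold change above 0 and 6 below, with a median of 0.047 against 3.95e-04 over all genes tested. Neither value was stable: without WT mouse 8, 6 of 14 were above 0 with a median of -0.0042, and without mouse B the median was 0.0089.

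Snhg8, the host of Snora24, was higher in every Opa1+/- mouse than in any WT mouse, at 15.5, 12.8, 13.7 and 13.5 CPM in WT mice 4, 5, 6 and 8 and 16.8, 15.8, 16.9 and 15.96 CPM in Opa1+/- mice 2, 7, A and B. The log2 fold change was 0.24 with an SE of 0.08 (edgeR, unadjusted p = 0.0153, adjusted p = 0.722). Snhg14, the long transcript of the imprinted Prader-Willi region that runs over clusters of box C/D snoRNAs and against Ube3a, was lower in every Opa1+/- mouse, at 32.4, 34.7, 34.3 and 32.1 CPM in WT and 30.6, 28.9, 22.8 and 30.3 CPM in the Opa1+/- group. The log2 fold change was -0.24 with an SE of 0.09 (edgeR, unadjusted p = 0.0251, adjusted p = 0.722), and mouse A, the lowest, moved it to -0.15 when left out. The whole annotated span of Snhg14, 667836 bases on chromosome 7, overlaps other genes, and reads of such genes could not be kept apart.

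Gas5, a growth arrest transcript that carries several box C/D snoRNAs and is degraded by the decay of RNAs with early stop codons, was at 77.9 ± 7.64 CPM in the WT group and 79.9 ± 2.96 CPM in the Opa1+/- group (SD, n = 4 each). Its log2 fold change of 0.04 was smaller than its SE of 0.07. Snhg1, Snhg5, Snhg6, Snhg9, Snhg12 and Snhg18 had log2 fold changes of 0.06 to 0.26 and Snhg3, Snhg4, Snhg11, Snhg17 and Snhg20 of -0.18 to -0.10, with unadjusted p-values from 0.157 to 0.574 by edgeR. Most of these values moved when 1 mouse was left out. On the higher side, Snhg5 ran from 0.17 without mouse B to 0.41 without Opa1+/- mouse 7 (edgeR, unadjusted p = 0.00771, adjusted p = 0.6997), Snhg1 from 0.0075 without mouse B to 0.24 without Opa1+/- mouse 2, and Snhg18 from 0.0073 without Opa1+/- mouse 2 to 0.09 without mouse A. On the lower side, Snhg11 ran from -0.30 without Opa1+/- mouse 7 (edgeR, unadjusted p = 0.0488, adjusted p = 0.703) to -0.06 without mouse B, and Snhg3 from -0.19 without mouse B to -0.06 without Opa1+/- mouse 2. Snhg4, Snhg17 and Snhg20 were nearest to 0 without WT mouse 6, at -0.03, -0.06 and -0.09, and farthest at -0.20 without WT mouse 8, -0.19 without Opa1+/- mouse 2 and -0.24 without WT mouse 4. A change of sign was seen for Gas5, from -0.0049 without WT mouse 8 to 0.11 without WT mouse 4, and for Snhg12, from -0.0035 without WT mouse 8 to 0.16 without WT mouse 6. Snhg6 was above WT in every Opa1+/- mouse, at 3.26 to 3.65 CPM against 2.81 to 3.18 CPM, by less than its SE allowed to be told from 0 (edgeR, unadjusted p = 0.249, adjusted p = 0.831). Snhg9 ranged from 2.15 to 6.34 CPM within WT, with mouse 4 highest, and its log2 fold change was 0.65 without that mouse against 0.20 with it (edgeR, unadjusted p = 0.0241 without it), and 0.02 without WT mouse 5. Of the untested hosts, Snhg7os had 46 counts in all.

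**Figure D4:**
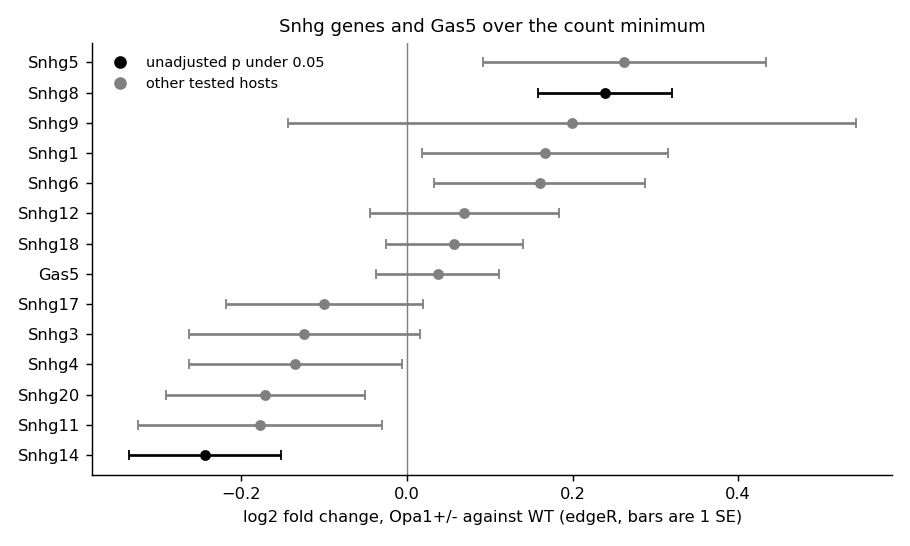
Log2 fold change of each tested Snhg gene and Gas5, Opa1+/- against WT, from edgeR, with bars of 1 SE. Snhg8 at 0.24 and Snhg14 at -0.24, in black, have an unadjusted p under 0.05, and the others lie between -0.18 and 0.26.

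Host genes were also found from the annotation, as any gene whose span holds a snoRNA or Scarna member on the same strand. Of 95 such genes, 93 were matched to rows, 4 of them under an older symbol. Leaving out Snhg genes and Gas5, 83 rows were tested, 51 with a log2 fold change above 0 and 32 below, with a median of 0.04. That median was 0.0083 without mice A and B, 0.01 under total counts alone and 0.02 (without WT mouse 8) to 0.07 (without WT mouse 4) over mice left out. The 24 ribosomal protein genes among them had 23 log2 fold changes above 0, with a median of 0.13, whereas the other 59 had a median of -0.01. Scaled by total counts alone, 21 of the 24 were above 0. Among them Rps12 had an unadjusted p under 0.05 (log2 fold change 0.23, SE 0.09, edgeR, unadjusted p = 0.0336, adjusted p = 0.722). WT mouse 4 bore on this: without it, 24 of 24 were above 0 and 13 had an unadjusted p under 0.05 and a higher level, as had 6.03% of all genes tested in that fit. Without mice A and B, 18 of 24 were above 0 with a median of 0.04, and over mice left out the median ran from 0.09 (without WT mouse 8 or mouse A) to 0.18 (without WT mouse 4). Summed, the 24 genes were at 7957, 6928, 7187 and 6764 CPM in WT mice 4, 5, 6 and 8 and 7557, 7198, 8314 and 8061 CPM in Opa1+/- mice 2, 7, A and B, and the groups overlapped. WT mouse 4, the highest of WT here, also held the most erythroid and marrow counts of WT, at 21420 and 1411 CPM. WT mouse 8 and Opa1+/- mouse 7 were the lowest of their groups both here and in the erythroid sum, which was 1.47 times as high in Opa1+/- mice, whereas mouse A lay above mouse B here and below it there. The part of these cells in the host values was not tested.

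The other annotated hosts with the lowest p-values were not ribosomal protein genes. Rc3h2, a ubiquitin ligase that destabilises mRNAs and holds Snord90, had a log2 fold change of -0.20 with an SE of 0.05 (edgeR, unadjusted p = 0.00299, adjusted p = 0.722). Ap1g1, an adaptor of clathrin vesicles that holds Snord71, had one of -0.15 with an SE of 0.06 (edgeR, unadjusted p = 0.0339, adjusted p = 0.722). Dancr, a noncoding RNA that holds Snora26, is listed in 2 rows with shared reads. In 1 of them the log2 fold change was 0.47 with an SE of 0.15 (edgeR, unadjusted p = 0.00968, adjusted p = 0.722). The other row of Dancr did not reach an unadjusted p under 0.05 by edgeR. Gm28496, which holds Snord88a and Snord88c, had a log2 fold change of 0.46 with an SE of 0.16 (edgeR, unadjusted p = 0.0143, adjusted p = 0.722). Rc3h2, both rows of Dancr and Gm28496 showed no overlap between groups. Of the 83 rows, 3 thus lay wholly above WT and 1 wholly below, where 1.98% and 2.33% of all tested genes did, and 3 were higher and 2 lower at an unadjusted p under 0.05, where 3.51% and 3.22% of all genes were. These counts lie near the background, and none passed the adjusted threshold.

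Each snoRNA group was set beside its own host where the snoRNAs within that gene had 20 or more counts, with 1 row for each symbol. This limit was chosen after the class values were known. It is on totals over both genotypes, which snoRNAs can pass through the group where they are high, so that the 18 hosts compared are given as a description. Snora73a and Snora73b lie within both Rcc1 and Snhg3 and count for each. The snoRNA ratios ran from 0.883 to 3.497, and those of the hosts from 0.916 to 1.202. The largest snoRNA ratios rested on few WT counts, 6 against 19 in Opa1+/- mice for Snora24 in Snhg8 and 7 against 17 for the snoRNAs in Rpl23a.

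The distance between a host and its snoRNAs ran from wide to almost none. Rpl5 was at 463.0 and 464.8 CPM, and Snord21 within it had a ratio of 2.18. Gas5 had a ratio of 1.03 and its 3 members Snord80, Snord78 and Snord47 a ratio of 1.99. Snhg5 had 1.202 against 2.35 for Snord50a and Snord50b, and Ncl had 0.978 against 2.46 for Snord82 and Snora75. At the other end, Rcc1 had 1.09 against 1.097 for Snora73a and Snora73b, and Eif4a2 had 0.933 against 0.969 for Snora81 and Snord2. Rps12 had a host ratio of 1.18 and a lower snoRNA ratio of 0.883 for Snord100 and Snora33. With ratios of sums from 24 to 105 counts and hosts that share their snoRNAs or their mice, the pairs are not independent, and no test was made.

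**Figure D5:**
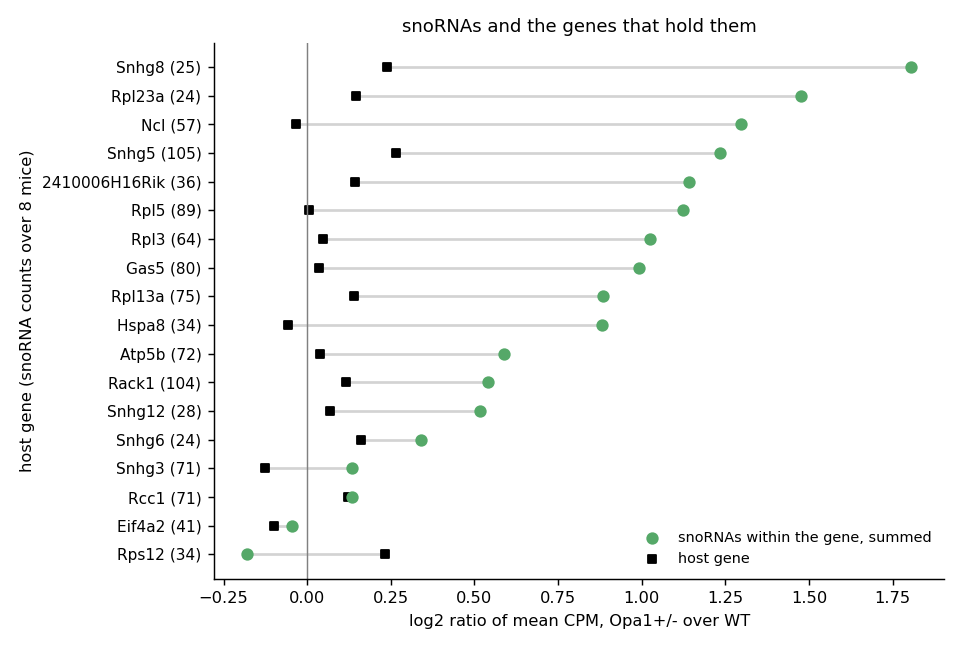
Log2 ratio of mean CPM, Opa1+/- over WT, for the summed snoRNAs within a host gene (green circles) and for the host itself (black squares), for hosts whose snoRNAs had 20 or more counts (in parentheses). Hosts lie between -0.13 and 0.27, and their snoRNAs reach 1.81, with Rps12 the 1 gene whose snoRNAs lie below it.

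The proteins of the snoRNA particles were examined last. A list of 35 genes held 24 with a log2 fold change above 0 and 11 below, with a median of 0.04. Neither was stable: without mice A and B 17 of 35 were above 0 with a median of -0.0016, scaled by total counts alone 20 were, with a median of 0.0089, and without mouse A 19 were. Over the fits without 1 mouse the median ran from 0.02 (without mouse B) to 0.07 (without Opa1+/- mouse 7). Among core proteins of box C/D particles, Fbl, the methyltransferase fibrillarin, was at 23.1 ± 2.16 CPM in the WT group and 24.2 ± 1.61 CPM in the Opa1+/- group (SD, n = 4 each), and Nop56, Nop58 and Nhp2l1 had log2 fold changes of 0.14, 0.06 and -0.02. Among those of box H/ACA particles, Dkc1, the pseudouridine synthase dyskerin, had a log2 fold change of 0.05, Nhp2 0.17, Nop10 0.12 and Gar1 -0.18. For none of these 8 genes was the unadjusted p of edgeR under 0.05, and the lowest of them was that of Nop56, 0.107. At that limit 0 genes of the list were higher and 2 of 35 were lower in Opa1+/- mice, where 3.51% and 3.22% of all tested genes were, so the count lies near that background. The first was Tgs1, which forms the trimethylated cap of snoRNAs with genes of their own (log2 fold change -0.16, SE 0.06, edgeR, unadjusted p = 0.0176, adjusted p = 0.722). The other was Nol11, a component of the processome of the small ribosomal subunit (log2 fold change -0.19, SE 0.07, edgeR, unadjusted p = 0.0287, adjusted p = 0.722). Groups without overlap were found for 1 gene on each side. Tgs1 was below WT in every Opa1+/- mouse, as 2.33% of all tested genes were, and Rrp9, a protein of the U3 particle named after its values were seen, was above it, as 1.98% were (log2 fold change 0.196, SE 0.12, edgeR, unadjusted p = 0.132, adjusted p = 0.775), at 5.08 to 6.81 CPM in WT and 6.92 to 7.07 CPM in Opa1+/- mice.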

How the data were processed

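Cochlear RNA of 8 mice was made into CORALL libraries, read as pairs of 80 nucleotides and mapped by the authors to GRCm38 with STAR, with molecular identifiers against amplification bias. The authors deposited 1 table of raw counts per mouse, whole numbers per gene symbol, without normalization. The counting program, annotation and use of strand are not given in the sources used here, so counts of overlapping or antisense genes are uncertain. Each table has 47643 entries. The 15 that give no symbol but a number held 0.112% to 0.124% of the counts and were not used.

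Counts were joined over the 8 mice, and genotypes were taken from the labels. CPM used library sizes scaled by TMM factors (edgeR 4.0.16) from genes with a mean count over 10 after DESeq2 size factors. Single genes above that minimum were fitted over the whole table with edgeR's quasi-likelihood test, not robust, and p-values were adjusted by Benjamini-Hochberg with a threshold of 0.05. Each library is a separate animal, so p-values measure the spread between mice. Class sums and subgroups have values and no test. The test was first checked on simulated counts. The members and lists were chosen with earlier results of these data known.

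Positions, strands, hosts and sequences come from GENCODE vM21 (GRCm38), which holds 147 of the 149 rows, and 2 hosts were placed from RefSeq alone. Sequences from chromosome 18 were not used, and for a symbol listed in 2 rows both sequences were counted in the motif shares. Of the annotated hosts, 1 gene is not reported here by name, nor in the comparison of snoRNAs with their hosts. Named are all tested hosts, the 5 members with the highest mean CPM of each small RNA class, the 10 members with the lowest p, Snord13 and Snord118, the core particle proteins, the 3 of that list and the 5 annotated hosts with the lowest p, and genes said to be picked later.

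Alternatives were DESeq2 1.42.0, its size factors, total counts alone, library sizes without mitochondrial genes, no minimum or a mean over 30, robust estimation, sums without the largest member or below the minimum, and each mouse or mice A and B both left out. Computations ran in R 4.3.3 and Python 3.11.15, with figures by matplotlib 3.10.9.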

Additional observations from a re-analysis of the deposited data

Results flagged for a closer look

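WT mouse 8 lay apart from the other WT mice in the Snord sum, with 6.07 CPM against 7.19 to 7.35 CPM, a gap that made up most of the range of the group. It was 1 such value in 48 groups of 4 mice examined, and chance gives about 5% of groups. The sum rests on 124 counts there, and counting alone would give an SD of 0.607 CPM over WT mice. Without this mouse the log2 ratio of the Snord sum was 0.76.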

How the results depend on the processing

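No paired analysis was possible because no animal number occurs in both genotypes. The log2 ratio of the Snord sum was 0.82 and lay between 0.53 and 0.98 over the alternatives for the sum. It was 0.63 to 0.98 when 1 mouse was left out. A different measure, the median fitted log2 fold change of tested Snord genes, was 1.002. The log2 ratio of the Snora sum was 0.34, with 0.27 to 0.40 over mice left out. That of the Scarna sum was 0.17, with -0.06 to 0.37. The host sum, -0.12, lay between -0.20 and -0.04 over mice left out, but the median fitted log2 fold change of tested hosts was 0.047, and the log2 ratio was 0.01 without Snhg11 or mice A and B. No Snora or Scarna row passed the count minimum, so sums and fitted medians of tested rows have no value there. Chosen after seeing the data were 1 row for each symbol (Snord 0.81, Snora 0.33), hosts without Snhg7os (-0.12) and the Snord sum without WT mouse 6 and mice A and B (0.56). Snord and Snora sums separated the groups under TMM, DESeq2 size factors and total counts. No member passed the adjusted threshold under any alternative. At an unadjusted p under 0.05, the count of higher members was 3. It was 12 with no count minimum, 1 with a mean over 30, 0 without mice A and B and 3 to 5 over mice left out, with 5 without Opa1+/- mouse 7. The count of lower members was 1, with 0 to 2 over mice left out (0 without WT mouse 5 or 6, 2 without Opa1+/- mouse 7), and 0 without mice A and B. Every fit without a mouse has fewer samples. Depth limits single snoRNAs most: 44 of 84 Snord, 23 of 40 Snora and 5 of 9 Scarna rows had 1 to 9 counts over all mice.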
